A study of Mus musculus with 70 samples.

Results

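Cell cycle and proliferation genes were followed in the lungs of 70 female B6C3F1 mice, a hybrid strain widely used in long-term toxicity bioassays, on Affymetrix mouse genome arrays with 1 array per mouse. The gene set held 43 genes of DNA replication, cyclin control, mitosis and cytokinesis. Its members were matched by gene symbol to the platform's probe set table, and each gene was read from its probe set with the highest mean over the 70 arrays. Of the 43 genes, 42 had a probe set (Ccnb1 was not analysed here), and 32 passed the filter on low signals, out of 14593 genes that passed among 18193 with a probe set. The 10 genes under the filter were Tyms, Ttk, Bub1, Aurkb, Cenpe, Cenpf, Nuf2, Kif11, Ect2 and Hmmr, and they entered no call. The values are log2 probe set signals as the authors deposited them, so a difference of 1 is a change of 2-fold, and the level of 1 gene says nothing about the level of another.

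All mice were adult females that entered at 5 weeks of age and were 18 weeks old after 13 weeks of dosing. Feed was offered on 7 days of each week, and gavage was given on 5 days with a vehicle volume of 5 ml/kg. The labels class 7 chemicals as positive for lung tumours. Of these, 1,5-naphthalenediamine at 2000 ppm and, at 1250 ppm, 2,2-bis(bromomethyl)-1,3-propanediol were given in feed. The others were 2,3-benzofuran (240 mg/kg), 1,2-dibromoethane (62 mg/kg), coumarin (200 mg/kg) and benzene (100 mg/kg) by gavage in corn oil, and N-methylolacrylamide (50 mg/kg) by gavage in water. The 6 negative chemicals were N-(1-naphthyl)ethylenediamine dihydrochloride (2000 ppm), pentachloronitrobenzene (8187 ppm), 4-nitroanthranilic acid (10000 ppm), diazinon (200 ppm) and malathion (16000 ppm) in feed and 2-chloromethylpyridine hydrochloride (250 mg/kg) in water. Animal identifiers fell into a set 1, with groups of 3 mice, and a set 2, with groups of 4 mice and 8 corn oil controls. Each chemical was compared with mice given the same vehicle in the same set. Set 1 held 1,5-naphthalenediamine, N-(1-naphthyl)ethylenediamine dihydrochloride and pentachloronitrobenzene with feed controls, and 2,3-benzofuran with corn oil controls. The other chemicals belonged to set 2, so that diazinon, malathion, 4-nitroanthranilic acid and 2,2-bis(bromomethyl)-1,3-propanediol shared 1 feed control group, 1,2-dibromoethane, coumarin and benzene shared 1 corn oil control group, and N-methylolacrylamide and 2-chloromethylpyridine hydrochloride shared 1 water control group. The sources used here do not say what the sets stand for.

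A dividing cell copies its DNA in S phase with the Mcm2 to Mcm7 helicase, the clamp Pcna and the nucleotide-making enzyme ribonucleotide reductase (Rrm1 and Rrm2). It then enters mitosis under Cdk1 with its cyclins Ccna2 and Ccnb2, builds a spindle with kinases and motor proteins, and leaves mitosis when the anaphase promoting complex destroys the cyclins. Most cells of the adult lung are at rest, and transcripts of these genes, above all Mki67 and Top2a, are commonly read as markers of the cells in cycle. In whole lung tissue, fewer cells of a type and less RNA per cell cannot be told apart.

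Few of the 32 genes passed the test with any chemical. With limma, which fits all 70 arrays in one model, 6 calls were made over the 13 chemicals at an adjusted p under 0.05 (Benjamini-Hochberg over 14593 genes): Mcm4, Top2a, Prc1 and Mki67 were higher with N-methylolacrylamide, Mki67 was lower with 2,3-benzofuran and Melk was higher with coumarin. The mean of the 32 genes averaged 6.46 ± 0.27 with N-methylolacrylamide and 6.20 ± 0.06 in water controls (SD, n = 4 each). It averaged 6.45 ± 0.19 with 2,3-benzofuran and 6.63 ± 0.10 in the corn oil controls of set 1 (SD, n = 3 each). In the plot of this mean by mouse, several treated groups hold 1 mouse well above the other mice of their group.

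**Figure D1:**
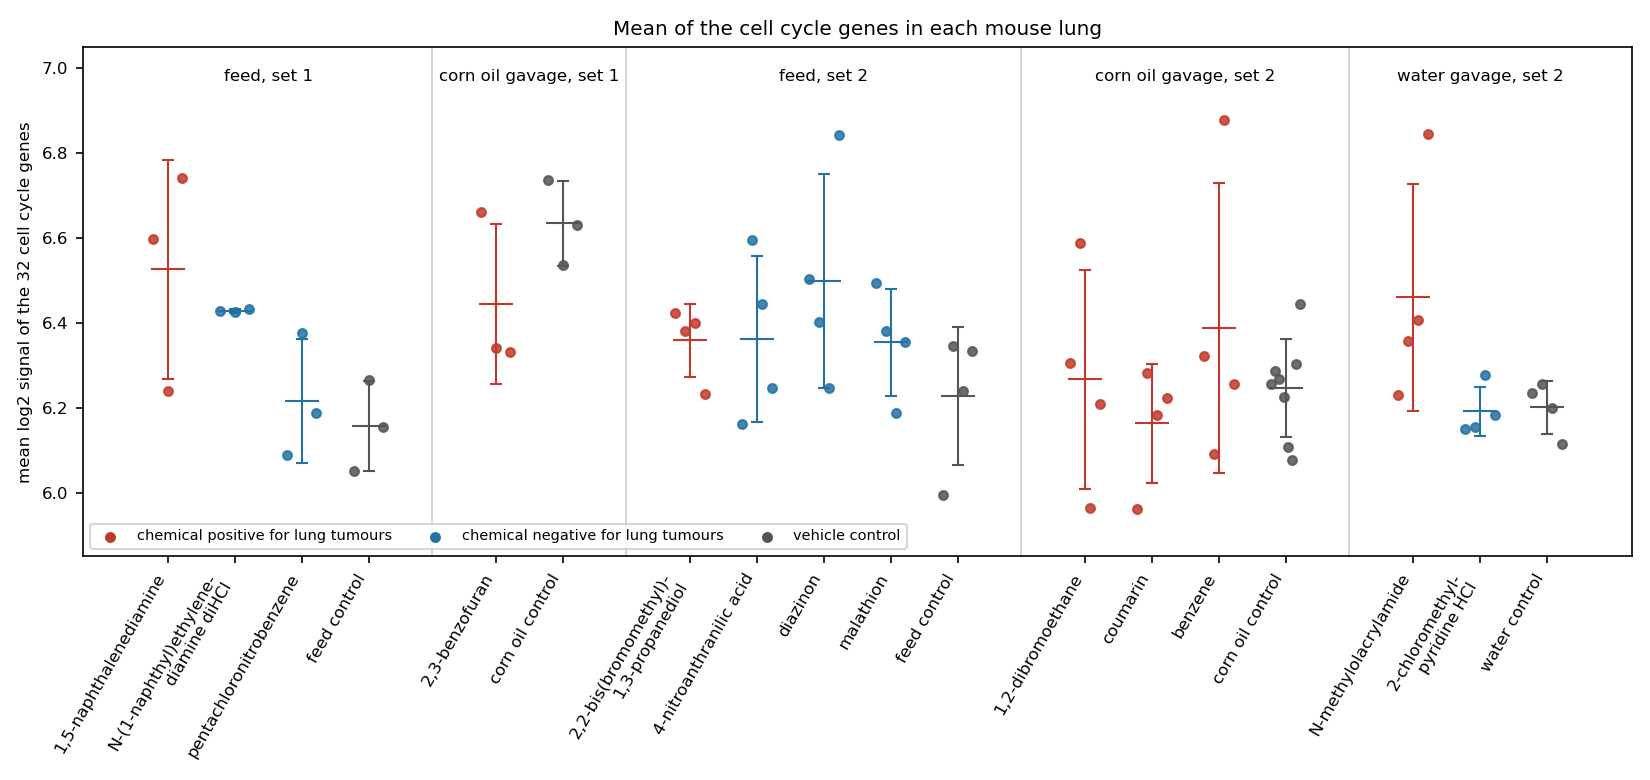
Mean log2 signal of the 32 cell cycle genes (y axis) in each of 70 mice (points) by group (x axis), with treated groups left of their controls; bars are the group mean with SD. The corn oil controls of set 1, between 6.54 and 6.74, lie above the feed controls of set 1, between 6.05 and 6.27, and single mice stand high with benzene (6.88), N-methylolacrylamide (6.85) and diazinon (6.84).

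N-methylolacrylamide gave 4 called members, all higher, where 10.7% of all genes tested were called higher and 17.9% were called in either direction, so the members' share of 12.5% lay near that of all genes. At an unadjusted p under 0.05, 9 members passed, all higher, against 34.6% of all genes and 15.4% higher. The median change of the members was 0.21, against -0.08 over all genes. Mcm4, a subunit of the replicative helicase, read 7.86, 8.00, 8.22 and 7.98 with N-methylolacrylamide, against 7.35, 7.05, 7.40 and 7.75 in water controls. Every treated mouse lay above every water control. The change was 0.63 ± 0.17 on the log2 scale (SE, limma adjusted p = 0.00899), or 1.54-fold.

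Top2a, the topoisomerase that untangles sister chromatids, read 5.70, 6.40, 6.23 and 6.85 with N-methylolacrylamide, against 5.30, 5.61, 5.33 and 5.13 in water controls. The groups did not overlap, although the lowest treated mouse lay close to the highest control. The change was 0.95 ± 0.28 (SE, limma adjusted p = 0.0145), or 1.94-fold. Prc1, which bundles the microtubules of the central spindle for cytokinesis, read 5.45, 5.60, 5.65 and 5.81 with N-methylolacrylamide, against 5.20, 4.91, 4.93 and 5.01 in water controls. Again all treated mice lay above all controls, with a change of 0.61 ± 0.18 (SE, limma adjusted p = 0.0151). Mki67, a protein of the chromosome surface in cycling cells, read 4.65, 5.26, 5.53 and 5.53 with N-methylolacrylamide, against 4.30, 4.81, 4.35 and 4.40 in water controls. Here the groups overlapped, since the lowest treated mouse lay under the highest control, and the change was 0.78 ± 0.27 (SE, limma adjusted p = 0.0413). Without the water control that read 7.05 for Mcm4, 1 member (Top2a) was called, and without either of the treated mice that read 6.40 and 6.85 for Top2a, 2 were called (Mcm4 and Prc1). Without any 1 of the other water controls or the treated mouse that read 6.23 for Top2a, Mki67 was the member that lost its call.

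These 4 calls depended on the control group. Between water and feed controls of set 2, 33.7% of all genes were called, and 18.2% of all genes were lower in water controls. Mcm4 was the 1 member called there. It read 7.35, 7.05, 7.40 and 7.75 in water controls, against 8.12, 7.77, 8.08 and 7.97 in feed controls, without overlap, a change of -0.60 ± 0.17 (SE, limma adjusted p = 0.00507). At an unadjusted p under 0.05, 2 members passed there, against 45% of all genes. Corn oil controls of set 2 also stood above water controls for Mcm4, by 0.40 ± 0.15 (SE, limma adjusted p = 0.0391), with overlapping groups. In corn oil against water controls of set 2, 22.9% of all genes were called, 12.3% of all genes were higher in corn oil, and 37.7% had an unadjusted p under 0.05. Mcm4 was the 1 member called there, and 3 members had an unadjusted p under 0.05. Its call ended without any 1 of the water controls other than the one at 7.75, and without any 1 of the corn oil controls at 7.92, 8.08, 8.10 and 8.32 (0.29 to 0.41, limma adjusted p between 0.0654 and 0.24). The gap between 3' and 5' probe sets of Actb and Gapdh, read for RNA integrity, was lowest in water controls (mean 0.116, 0.083 to 0.164). It was 0.287 in feed controls of set 2 (0.205 to 0.393) and 0.179 with N-methylolacrylamide (0.114 to 0.239). Beyond the covariate fit given at the end, its part in these calls was not tested.

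Set against the feed controls of set 2, a comparison chosen after seeing the data, N-methylolacrylamide gave 0 called members in limma. The change was then 0.03 for Mcm4 (limma adjusted p = 0.942), 0.30 for Prc1 (limma adjusted p = 0.346), 0.43 for Mki67 (limma adjusted p = 0.388) and 0.52 for Top2a (limma adjusted p = 0.287). 2-chloromethylpyridine hydrochloride, the other chemical given in water, read 7.66, 7.72, 7.80 and 7.83 for Mcm4, against the same water controls, a change of 0.36 ± 0.17 (SE, limma adjusted p = 0.395) with overlapping groups. For Top2a it read 5.06, 4.93, 5.63 and 5.77, which spans the range of the water controls. Mcm7, the member with the smallest p among those lower with N-methylolacrylamide, did not pass (-0.22 ± 0.12, limma adjusted p = 0.175).

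Other probe sets of the called genes did not all move alike. For the other Mcm4 probe set the change was 0.70 with N-methylolacrylamide (limma adjusted p = 0.0942) and -1.34 in water against feed controls (limma adjusted p = 0.000359). For the other Prc1 probe set it was 0.26 (limma adjusted p = 0.247), and for the 2 further Top2a probe sets -0.14 and 0.20 (limma adjusted p = 0.722 and 0.405). Their means over the 70 arrays, 4.24 and 4.72, lie near the filter at 4.25. Averaged over all its probe sets, Top2a was no longer called (0.34). Mki67 and Melk have 1 probe set each. Both read near the filter in the controls of their calls, at a mean of 4.46 for Mki67 in water controls. Melk averaged 4.45 in corn oil controls of set 2.

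**Figure D2:**
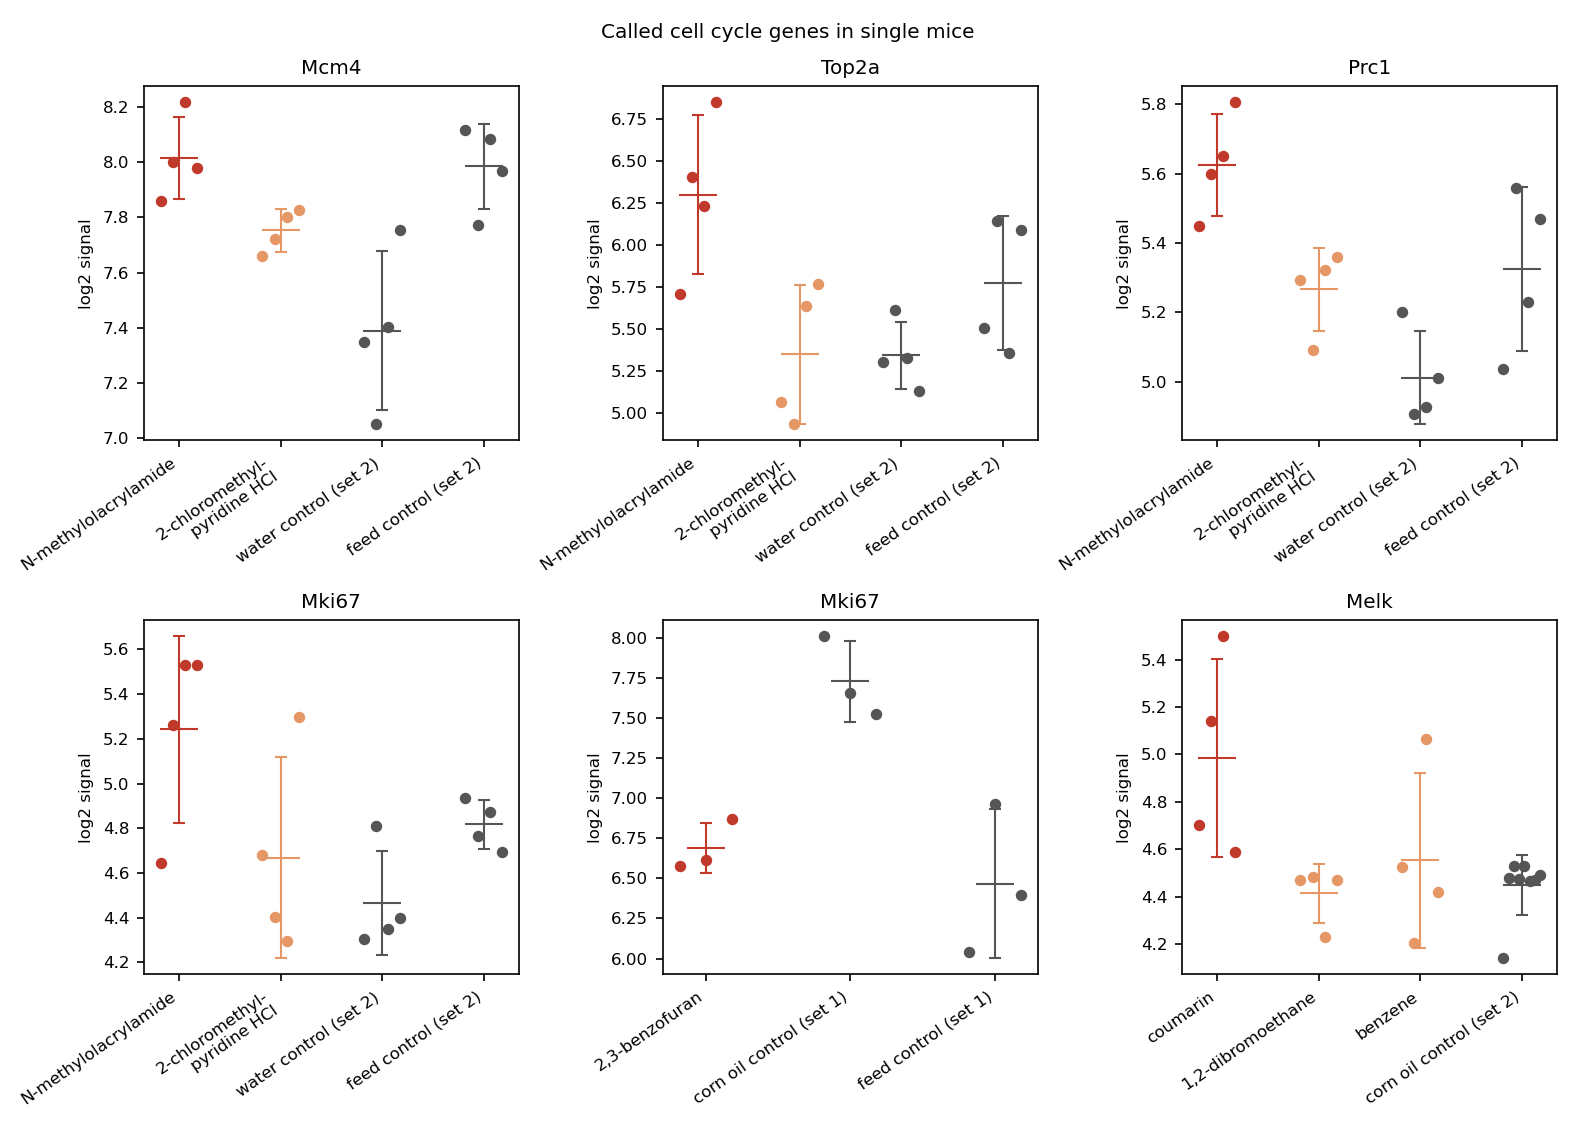
Log2 signal (y axis) of the called genes in single mice (points), with the group mean and SD (bars), for the treated group of the call (red), other chemicals given in the same vehicle and set (orange) and control groups (grey). For Mcm4 the feed controls of set 2, between 7.77 and 8.12, cover nearly the range of the N-methylolacrylamide mice, between 7.86 and 8.22, while water controls lie between 7.05 and 7.75.

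The promoters of the called genes are shown because genes that peak in late cell cycle stages are known to carry a CCAAT box, bound by the factor NF-Y, and a cell cycle genes homology region (CHR), bound by complexes that hold them silent in resting cells and switch them on before mitosis. The windows run from 250 bases before to 50 after the start site, from RefSeq (GRCm38.p6), on the strand of the gene, and capitals mark CCAAT or its reverse ATTGG and the CHR letters TTTGAA or TTCAAA. They lie at chr7:135716330-135716629 on the minus strand for Mki67, chr11:99024140-99024439 on the minus strand for Top2a, chr7:80294201-80294500 on the plus strand for Prc1 and chr4:44300667-44300966 on the plus strand for Melk. Mcm4 is named only.
Mki67: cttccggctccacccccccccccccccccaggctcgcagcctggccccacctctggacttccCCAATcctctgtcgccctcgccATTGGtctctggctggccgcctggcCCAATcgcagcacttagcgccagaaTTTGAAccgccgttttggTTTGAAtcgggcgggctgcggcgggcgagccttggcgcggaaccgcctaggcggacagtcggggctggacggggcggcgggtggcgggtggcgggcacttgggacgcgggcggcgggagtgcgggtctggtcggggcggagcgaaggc
Top2a: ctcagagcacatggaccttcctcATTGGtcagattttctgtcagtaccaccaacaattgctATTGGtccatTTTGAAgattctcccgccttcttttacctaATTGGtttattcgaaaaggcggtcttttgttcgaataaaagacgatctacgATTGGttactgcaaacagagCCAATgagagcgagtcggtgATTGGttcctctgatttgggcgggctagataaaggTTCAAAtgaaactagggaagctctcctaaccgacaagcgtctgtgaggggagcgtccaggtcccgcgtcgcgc
Prc1: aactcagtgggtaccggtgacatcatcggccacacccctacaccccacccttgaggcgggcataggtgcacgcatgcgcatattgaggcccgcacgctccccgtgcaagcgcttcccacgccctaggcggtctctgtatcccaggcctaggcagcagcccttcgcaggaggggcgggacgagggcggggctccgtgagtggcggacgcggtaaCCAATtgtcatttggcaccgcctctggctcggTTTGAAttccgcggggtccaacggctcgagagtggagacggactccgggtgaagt
Melk: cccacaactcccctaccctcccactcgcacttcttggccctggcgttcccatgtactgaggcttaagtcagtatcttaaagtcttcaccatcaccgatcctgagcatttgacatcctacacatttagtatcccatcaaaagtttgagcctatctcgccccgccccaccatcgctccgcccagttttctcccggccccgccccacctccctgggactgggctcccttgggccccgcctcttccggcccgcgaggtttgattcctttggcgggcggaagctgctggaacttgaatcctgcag
The Mki67 window holds 3 CCAAT boxes and 2 CHR matches, the Top2a window 6 CCAAT boxes and 2 CHR matches, and the Prc1 window 1 of each, 37 and 5 bases before the start site. The Melk window holds no match to either motif.

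Of the 43 genes, 37 had a promoter window, and their letters were searched on both strands. CCAAT stood in 30 of the 37 windows (81.1%), against 37.9% of the windows of all 27025 genes with one. A CHR match, TTTGAA or TTTAAA, stood in 26 windows (70.3%), against 27.8% of all. Both motifs together stood in 24 windows (64.9%), against 10.9% of all genes and 10.3% of the 17491 protein-coding genes. The E2F letters TTTCCCGC, TTTCGCGC, TTTGCCGC and TTTGGCGC stood in 5 windows (13.5%), against 2.3% of all. The 5 were the windows of Mcm3, Mcm5, Mcm6, Mcm7 and Cdk1, so that 4 of them belonged to the helicase. The motifs do not overlap each other in their letters. A match is a description of these letters and not a mapped site.

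2,3-benzofuran gave 1 called member, Mki67, which was lower, where 0.521% of all genes were called lower and 4.07% were called in either direction. Mki67 read 6.58, 6.62 and 6.87 with 2,3-benzofuran, against 8.01, 7.66 and 7.52 in the corn oil controls of set 1. All treated mice lay below all controls, with a change of -1.04 ± 0.32 on the log2 scale (SE, limma adjusted p = 0.0458). Leaving out either of 2 treated mice or either of 2 controls ended the call (0 members called each time), as did the fit of these 2 groups alone. Top2a read 6.52, 6.63 and 6.75 with 2,3-benzofuran, against 7.65, 7.23 and 7.54 in the same controls, without overlap, and did not pass (-0.84 ± 0.32, limma adjusted p = 0.123). In all, 3 members had an unadjusted p under 0.05, and all 3 were lower. Of all genes, 17% had such a p, with 449 of 14593 lower. The median change of the 32 genes was -0.16, against 0.06 over all genes, and 7 of 32 were higher. Among the 10 genes under the filter, which would enter with no filter, Cenpf, a kinetochore protein, was lower (-0.76 ± 0.21, limma adjusted p = 0.0318 in that fit), and Mki67 was not called. The changes of these 10 genes with 2,3-benzofuran ran from -0.76 to -0.12. In the same fit, Cenpf stood 0.89 ± 0.21 higher in corn oil than in feed controls of set 1, without a call (limma adjusted p = 0.551).

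The corn oil controls of set 1 were also compared with the feed controls of set 1. They gave 0 called genes of any kind in limma (0%), yet 18 of 32 members had an unadjusted p under 0.05, all higher, where 1.82% of all genes had such a p and 0.884% were higher. The median change of the members was 0.43, against -0.03 over all genes, and 31 of 32 were higher in corn oil controls. Mki67 read 8.01, 7.66 and 7.52 in corn oil controls, against 6.04, 6.97 and 6.40 in feed controls (1.26 ± 0.32, limma adjusted p = 0.854). Cdk1, the mitotic kinase, read 6.93, 6.65 and 7.15 in corn oil controls, against 5.98, 6.43 and 5.65 in feed controls (0.89 ± 0.30, limma adjusted p = 0.9999). Neither gene's groups overlapped. E2f1 was the 1 member not higher (-0.01 ± 0.14, limma adjusted p = 0.9999).

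The mean of the 2,3-benzofuran mice lay between the means of these control groups for Mki67, at 6.69, against 7.73 in corn oil and 6.47 in feed controls. Set against the feed controls of set 1, a comparison chosen after seeing the data and across routes, the change of Mki67 was 0.22 ± 0.32 (SE, limma adjusted p = 0.867), and the median change of the members was 0.24. In set 2, corn oil against feed controls gave 0 of 32 members called in limma, where 3.46% of all genes were called, and 2 members with an unadjusted p under 0.05, against 20.3% of all genes. Their median change was 0.01, and the difference between the sets was not tested. Pcna, the lower member with the smallest p there, did not pass (-0.23 ± 0.10, limma adjusted p = 0.159), nor did Ccna2 (0.31 ± 0.16, limma adjusted p = 0.266). Over sets, Mki67 lay between 6.04 and 8.01 in the 18 mice of set 1 and between 4.22 and 6.29 in the 52 mice of set 2. Cdk1 had medians of 6.55 in set 1 and 6.53 in set 2.

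Markers of other cells were read beside these differences. In corn oil against feed controls of set 1, the median change was -0.04 for thymocyte markers, -0.06 for germinal centre B cell markers, 0.22 for erythroid markers, 0.35 for fibroblast markers and 0.46 for mesothelium markers, which moved farthest of the lists, with no marker called. With 2,3-benzofuran, 3 of 6 fibroblast markers were called lower (median -0.59) and 2 of 7 ciliated cell markers higher (median 0.55). The benzofuran mouse with the highest mean of the 32 genes, 6.66, also had the widest gap between 3' and 5' probe sets of Actb and Gapdh in its group, 0.52, against 0.10 and 0.16 in the other 2. The part of these values in the result was not tested.

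Coumarin gave 1 called member, Melk, a kinase of dividing and progenitor cells, which was higher, where 2.91% of all genes were called higher and 4.09% in either direction. Melk read 4.70, 5.14, 5.50 and 4.59 with coumarin, against a lowest of 4.14, a median of 4.48 and a highest of 4.53 in the 8 corn oil controls of set 2. All 4 coumarin mice lay above all controls, 2 of them by little, with a change of 0.54 ± 0.13 (SE, limma adjusted p = 0.0071). The fit of these 2 groups alone ended the call (0 members called). The other members did not follow: 3 of 32 had an unadjusted p under 0.05, 2 of them higher, against 16.7% of all genes, and the median change was -0.10, against -0.01 over all genes. Ube2c, the ubiquitin enzyme of the anaphase promoting complex, did not pass (-0.60 ± 0.27, limma adjusted p = 0.222). In the same comparison 4 of 4 natural killer cell markers were called lower (median -0.69) and 4 of 7 ciliated cell markers higher (median 0.51). Their part in the Melk result was not tested.

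1,5-naphthalenediamine gave no called member in limma (0 of 32, where 1.11% of all genes were called), but 10 members had an unadjusted p under 0.05 and all 10 were higher. Of all genes, 8.85% had such a p and 4.82% were higher. The median change was 0.33, against -0.02 over all genes, and 28 of 32 were higher. Untreated corn oil controls of set 1 stood above the same feed controls as well. There 18 of 32 members had an unadjusted p under 0.05, and their median change was 0.43. The part of the feed controls in the rise with 1,5-naphthalenediamine was not tested. Ccnb2, the B-type cyclin of mitotic entry, read 6.25, 5.67 and 6.28 with 1,5-naphthalenediamine, against 5.01, 5.43 and 5.05 in feed controls of set 1. The groups did not overlap (0.90 ± 0.30, limma adjusted p = 0.18), and in the fit of these 2 groups alone Ccnb2 was called. Ube2c read 7.80, 6.94 and 7.98 with 1,5-naphthalenediamine, against 6.74, 6.65 and 6.57 in feed controls (0.92 ± 0.36, limma adjusted p = 0.326). For both genes the same treated mouse lay close to the controls, and it was the lowest of its group in 25 of the 32 genes. Its share over all genes was not counted. Among members lower with 1,5-naphthalenediamine, E2f1 had the smallest p (-0.19 ± 0.14, limma adjusted p = 0.817).

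N-(1-naphthyl)ethylenediamine dihydrochloride, the other naphthalene amine, shared those feed controls. It gave 0 of 32 members called in limma, where 0.00685% of all genes were called. There were 4 members with an unadjusted p under 0.05, all higher. Of all genes, 7.56% had such a p, with 505 of 14593 higher. The median change was 0.24, against -0.01 over all genes, where untreated corn oil controls had a median of 0.43 against the same feed controls. Mki67 read 7.21, 7.19 and 7.33 with this amine, against 6.04, 6.97 and 6.40 in feed controls, without overlap (0.78 ± 0.32, limma adjusted p = 0.574). Prc1 averaged 5.86 ± 0.09 with the amine and 5.34 ± 0.13 in feed controls (SD, n = 3 each), a change of 0.52 ± 0.21 (limma adjusted p = 0.566). Rrm1 had the smallest p among members lower with it (-0.05 ± 0.12, limma adjusted p = 0.948).

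Both amines were fed at 2000 ppm, so they were also compared directly, the only pair of related chemicals with matched dose and time. 1,5-naphthalenediamine carries 2 amino groups on the ring, and in the other compound the amine sits in an ethylenediamine side chain. No member was called in limma (0 of 32, where 1.67% of all genes were called), and 0 members had an unadjusted p under 0.05, against 10.7% of all genes. The median difference was 0.07 (1,5-naphthalenediamine minus the other). Ube2c differed by 0.51, with a 95% interval from -0.20 to 1.23, and Foxm1, a transcription factor of mitotic genes, by -0.24 (-0.52 to 0.04), and Rrm1 by 0.19 (-0.06 to 0.44), so the intervals leave room for differences of over 2-fold for Ube2c. Ccnd2, a G1 cyclin outside the set of 43, was lower with 1,5-naphthalenediamine than with the other amine (-0.43 ± 0.12, limma adjusted p = 0.0393).

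Plasma cell markers stood higher with 1,5-naphthalenediamine against feed controls, with 4 of 7 called and a median change of 0.75, and their summed level lay between 13.87 and 14.69, against 12.56 to 12.76 in feed controls. For the other amine the median change was -0.01. The part of these cells in the cell cycle values was not tested.

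Among the chemicals fed in set 2, diazinon gave 0 of 32 members called in limma, where 0.00685% of all genes were called. At an unadjusted p under 0.05, 7 members passed, all higher, against 4.89% of all genes and 2.51% higher. The median change was 0.26, against 0.004 over all genes, and 29 of 32 were higher. Ccna2, the cyclin of S phase and G2, read 5.95, 5.84, 6.02 and 6.65 with diazinon, against 5.22, 5.81, 5.20 and 5.83 in feed controls. The groups only just failed to overlap, and the change was 0.60 ± 0.18 (SE, limma adjusted p = 0.883). Mcm5 read 8.35, 7.68, 7.27 and 8.04 with diazinon, against 6.89, 7.15, 7.63 and 7.40 in feed controls, with overlap (0.57 ± 0.20, limma adjusted p = 0.883). Ndc80, a kinetochore protein that binds microtubules, had the smallest p among lower members (-0.11 ± 0.16, limma adjusted p = 0.925). Its means, 4.134 with diazinon and 4.245 in feed controls, lay under the filter at 4.25, which it passed over all 70 arrays (4.31).

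Malathion, also an organophosphate insecticide but fed at a dose other than that of diazinon, gave 0 of 32 members called in limma, where 2.19% of all genes were called. There were 4 members with an unadjusted p under 0.05, all higher. Of all genes, 17.5% had such a p, with 1291 of 14593 higher. Mcm5 read 8.01, 7.84, 7.47 and 7.51 with malathion, against the same feed controls (0.44 ± 0.20, limma adjusted p = 0.227). The median change of the members was 0.14, and Prc1 had the smallest p among lower members (-0.17 ± 0.18, limma adjusted p = 0.642). No comparison of the 2 insecticides is made, since their doses differ. 2,2-bis(bromomethyl)-1,3-propanediol gave 0 called genes of any kind in limma (0%) and 5 members with an unadjusted p under 0.05, all higher, against 10.7% of all genes and 5.63% higher. Mcm2 read 8.04, 8.06, 7.97 and 7.91 with 2,2-bis(bromomethyl)-1,3-propanediol, against 7.43, 7.66, 7.68 and 7.66 in feed controls, without overlap (0.39 ± 0.15, limma adjusted p = 0.378). Ndc80 did not pass either (-0.21 ± 0.16, limma adjusted p = 0.625), with the means of both groups under the filter.

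4-nitroanthranilic acid gave 0 called genes of any kind in limma (0%). Of all genes, 1.86% had an unadjusted p under 0.05, with 73 of 14593 higher. Among the members 2 had such a p, each of them higher. These were Ccnb2 (0.57 ± 0.26) and Nusap1 (0.64 ± 0.32), a spindle protein, each with a limma adjusted p of 0.9996, and Ndc80 had the smallest p among lower members (-0.21 ± 0.16, limma adjusted p = 0.9996). For Ndc80 the means of both groups lay under the filter.

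The remaining chemicals gave no called member. 1,2-dibromoethane gave 0 of 32 called in limma, where 4.03% of all genes were called, and 3 with an unadjusted p under 0.05, against 19.3% of all genes. Foxm1 (0.30 ± 0.11, limma adjusted p = 0.0944) and Mcm3 (-0.26 ± 0.12, limma adjusted p = 0.229) had the smallest p in each direction. Without one of the 8 corn oil controls, 1 member, Foxm1, was called.

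One 1,2-dibromoethane mouse had the widest 3' to 5' gap of the 70, at 0.99, against 0.14 to 0.25 in the other 3, and was the lowest of its group in 23 of the 32 members (share over all genes not counted). Without it the median change of the members was 0.09, against -0.003 with all 4 mice, and Mcm3 stood at -0.18 (limma adjusted p = 0.532). In this comparison 3 of 6 alveolar macrophage markers (median -0.46), 3 of 6 alveolar type II markers (median -0.17) and 2 of 4 mesothelium markers (median -1.11) were called lower, and 3 of 7 ciliated cell markers higher (median 0.53). Beyond the values without that mouse, the part of RNA quality and of other cells in the result was not tested.

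Benzene gave 0 of 32 called in limma, where 0.0891% of all genes were called. There were 3 members with an unadjusted p under 0.05, all higher. Of all genes, 9.46% had such a p, with 879 of 14593 higher. Cdc20, the activator of the anaphase promoting complex, read 7.04, 7.30, 8.64 and 7.97 with benzene, against a lowest of 6.35, a median of 7.06 and a highest of 7.61 in corn oil controls of set 2. The groups overlapped (0.75 ± 0.24, limma adjusted p = 0.415). Kif23, a motor of the central spindle, had the smallest p among lower members (-0.18 ± 0.18, limma adjusted p = 0.752).

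Pentachloronitrobenzene gave 0 of 32 called in limma, where 0.00685% of all genes were called, and 1 with an unadjusted p under 0.05, against 2.94% of all genes. That was Foxm1 (0.31 ± 0.14, limma adjusted p = 0.9997), and Cenpa had the smallest p among lower members (-0.23 ± 0.20, limma adjusted p = 0.9997). 2-chloromethylpyridine hydrochloride gave 0 called genes of any kind in limma (0%) and 1 member with an unadjusted p under 0.05, against 11.7% of all genes. That was Mcm4, given above, and E2f1 had the smallest p among lower members (-0.21 ± 0.12, limma adjusted p = 0.482).

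**Figure D3:**
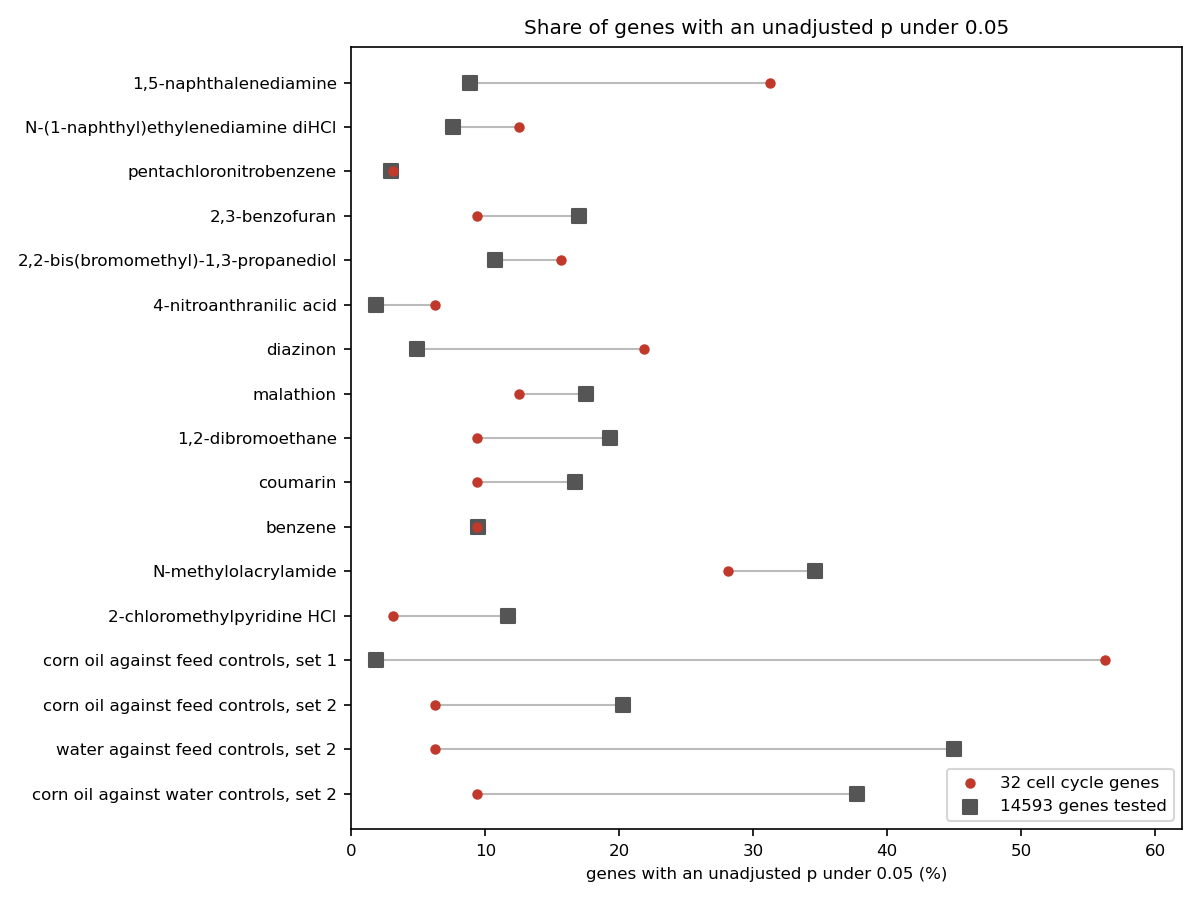
Share of genes with an unadjusted p under 0.05 in limma (x axis, %) in each comparison with matched controls and between control groups (y axis), for the 32 cell cycle genes (red) and all 14593 genes tested (grey squares). The shares lie farthest apart for corn oil against feed controls of set 1, where 56.2% of the members passed against 1.82% of all genes.

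By role, the range of median changes was widest for the chromosome proteins Top2a and Mki67, from -0.94 with 2,3-benzofuran to 0.87 with N-methylolacrylamide. Over the 13 chemicals the median change of the 7 replication genes ran from -0.11 with 1,2-dibromoethane to 0.19 with malathion. The low end rested on the 1,2-dibromoethane mouse with the widest 3' to 5' gap: without it that median was 0.04, and the lowest was -0.09 with 2,3-benzofuran. The median of Cdk1, Ccna2 and Ccnb2 ran from -0.20 with 2,3-benzofuran to 0.85 with 1,5-naphthalenediamine. That of Cdc20, Ube2c and Cdca3, grouped here under the anaphase promoting complex, ran from -0.19 with coumarin to 0.54 with 1,5-naphthalenediamine. These are ranges over groups of 3 to 8 mice, and only the 6 calls passed the test.

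Within the roles the members differed. Rrm2, the subunit of ribonucleotide reductase that dividing cells make anew, stood at -0.41 with 2,3-benzofuran and at 0.82 with 1,5-naphthalenediamine, while Rrm1, the large subunit, stayed between -0.11 and 0.15 over the 13 chemicals, or between -0.06 and 0.15 without the 1,2-dibromoethane mouse of the widest 3' to 5' gap. Pcna, the clamp that holds the polymerase on DNA, stayed between -0.13 and 0.22. Its low end, with 1,2-dibromoethane, turned to 0.11 without that mouse, and the lowest was then -0.04 with coumarin. Among the mitotic kinases, Plk1 ran from -0.17 to 0.21, Aurka from -0.08 to 0.36 and Bub1b, of the spindle checkpoint, from -0.16 to 0.42. The chromosomal passenger protein Birc5 (survivin) ran from -0.36 to 0.75 and its partner Cdca8 from -0.40 to 0.46. The transcription factors E2f1, which opens S phase, and Foxm1 stayed between -0.21 and 0.31. Tpx2, an activator of Aurka at the spindle, ran from -0.22 to 0.22, and the cytokinesis motors Kif20a and Kif23 from -0.36 to 0.37 and from -0.26 to 0.39. The centromere histone Cenpa ran from -0.24 to 0.39.

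**Figure D4:**
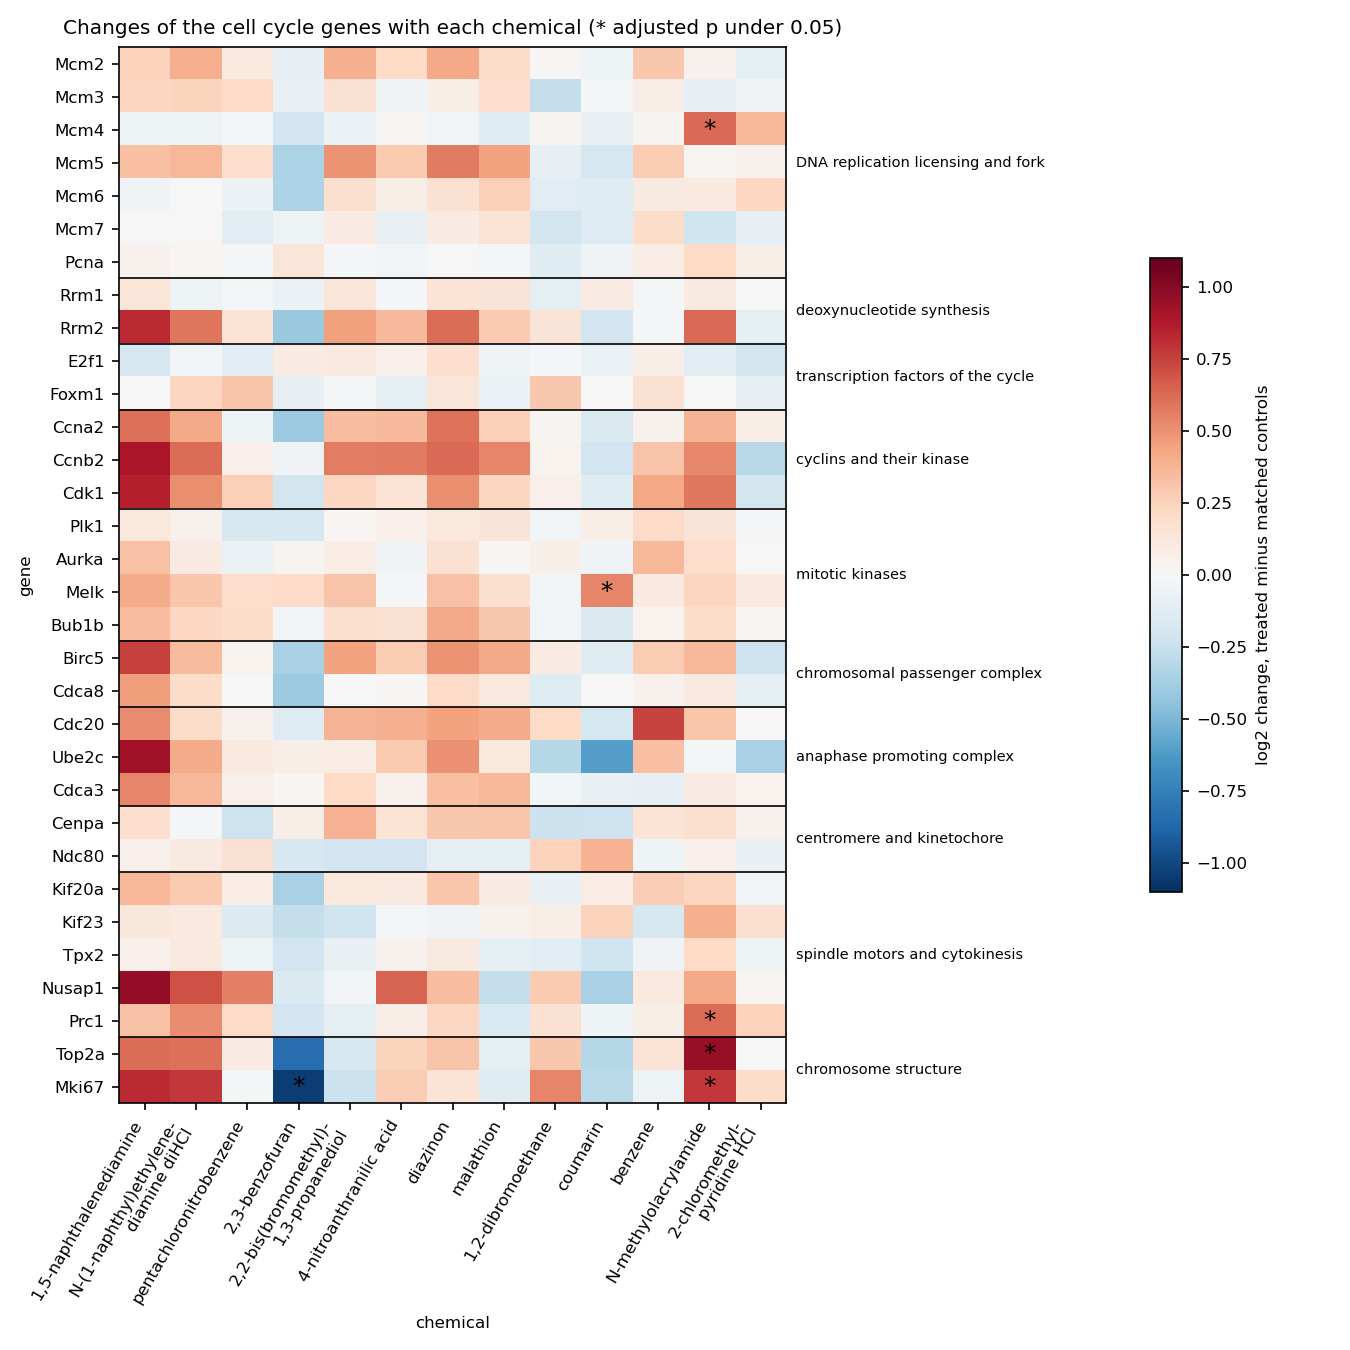
Log2 change, treated minus matched controls (colour), of the 32 genes (rows, grouped by role) with each of the 13 chemicals (columns, ordered by vehicle and set); asterisks mark an adjusted p under 0.05. The 6 asterisks are Mcm4, Prc1, Top2a and Mki67 with N-methylolacrylamide, Melk with coumarin and Mki67 with 2,3-benzofuran.

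Tumour class was compared over chemicals, with 1 value for each chemical (treated mean minus matched control mean), 7 positive against 6 negative. Chemicals that share a control group are not fully independent, which the standard errors and p-values do not take into account. Most positive chemicals were given by gavage and most negative ones in feed, so class and route cannot be fully told apart. No gene was called in limma (0%), 6.46% of all genes had an unadjusted p under 0.05, and 0 of 32 members were called or had such a p. The median difference of the members was -0.05 (positive minus negative), against 0.01 over all genes, and 11 of 32 were higher in the positive class. The member with the smallest p was Mcm5, whose change averaged 0.07 over the positive chemicals and 0.32 over the negative ones, a difference of -0.25 ± 0.13 (SE, limma adjusted p = 0.798). Aurka had the smallest p among members higher in the positive class (0.12 ± 0.08, limma adjusted p = 0.821).

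A further list of cell cycle genes outside the 43 gave 75 tested genes, among them G1 cyclins, cyclin kinase inhibitors, the E2F and RB family and origin firing genes. N-methylolacrylamide gave 7 called, 4 higher and 3 lower, or 9.33% of the 75, against 17.9% of all genes. Rbl1, a pocket protein that represses cell cycle genes, was higher by 0.91 ± 0.22 (SE, limma adjusted p = 0.00469), as were Rb1 (0.85), Pbk (0.86) and Dbf4 (0.77), the activator of the origin firing kinase. Cdkn1a, the p21 inhibitor that p53 induces, was lower (-0.83 ± 0.31, limma adjusted p = 0.0497), as were Cdkn1c (-0.50) and Cdc25a (-0.34). Untreated corn oil controls of set 2 were also lower than water controls for Cdkn1c (-0.38 ± 0.14, limma adjusted p = 0.0461) and Cdc25a (-0.33 ± 0.11, limma adjusted p = 0.0216). Cdkn1a was not called there (-0.21 ± 0.26, limma adjusted p = 0.569). With 2-chloromethylpyridine hydrochloride against the same water controls, Cdkn1a stood at -1.05 ± 0.31, without a call (limma adjusted p = 0.351). Of the 4 genes higher with N-methylolacrylamide, 3 were lower in water controls than in feed controls of set 2: Rb1 (-1.19 ± 0.24, limma adjusted p = 0.000207), Dbf4 (-1.04 ± 0.27, limma adjusted p = 0.00278) and Rbl1 (-0.90 ± 0.22, limma adjusted p = 0.00151). In water against feed controls, 17 of 75 were called (22.7%, against 33.7% of all genes). In corn oil against water controls of set 2, 13 were called (17.3%, against 22.9% of all genes).

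The corn oil chemicals of set 2 share 1 control group. With coumarin 3 of 75 were called (4%, against 4.09% of all genes): Nek2, a centrosome kinase (0.64 ± 0.13, limma adjusted p = 0.00103) and Ccnd1 (0.29) were higher and Ccnd2 (-0.33) was lower. With 1,2-dibromoethane 3 of 75 were called (4%, against 4.03% of all genes): Nek2 (0.56) and Ccnd1 (0.35) were higher and Tfdp1 (-0.30) was lower. Without the mouse of the widest 3' to 5' gap, Ccnd1 (0.26, limma adjusted p = 0.123) and Tfdp1 (-0.26, limma adjusted p = 0.11) were no longer called, and Nek2 was (0.63, limma adjusted p = 0.00869). With benzene Ccnd1, a G1 cyclin, was the 1 call of 75 (0.41 ± 0.09, limma adjusted p = 0.0317), against 0.0891% of all genes. With 2,3-benzofuran, which has its own controls, Cdk6, a kinase partner of the D cyclins, was lower (-0.76 ± 0.17, limma adjusted p = 0.0049), as was Ccnd2 (-0.43 ± 0.12, limma adjusted p = 0.0248). They were 2.67% of the list, where 4.07% of all genes were called in either direction and 0.521% were called lower. With malathion E2f6 (-0.45) and Ccnd2 (-0.45) were lower, 2.67% of the list, where 2.19% of all genes were called and 169 of 14593 were called lower. With 1,5-naphthalenediamine Uhrf1, which keeps DNA methylation in replication, was the 1 call of 75 and was higher by 0.81 ± 0.19 (limma adjusted p = 0.0123), against 1.11% of all genes. Uhrf1 also stood 0.74 ± 0.19 higher in corn oil than in feed controls of set 1, without a call (limma adjusted p = 0.854).

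Among mice of the same group the members varied together. Over the deviations of the 70 arrays from their group means, the median correlation of the 496 pairs of members was 0.37 (Pearson r), against 0.02 for pairs of all genes, and 147 pairs lay above 0.5. The points share the array and the RNA sample. Cdk1 followed the mean of the other 31 members most closely (r = 0.88), then Birc5 (0.87), Ccnb2 (0.86), Ube2c (0.83) and Ccna2 (0.82). E2f1 (0.07), Ndc80 (0.07), Foxm1 (0.15), Rrm1 (0.29) and Mcm4 (0.29) followed it least. Mki67 stood at 0.51. Of the 4 genes called with N-methylolacrylamide, Mcm4 was thus among those that least followed the others, and Top2a (0.77) and Prc1 (0.71) followed them.

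**Figure D5:**
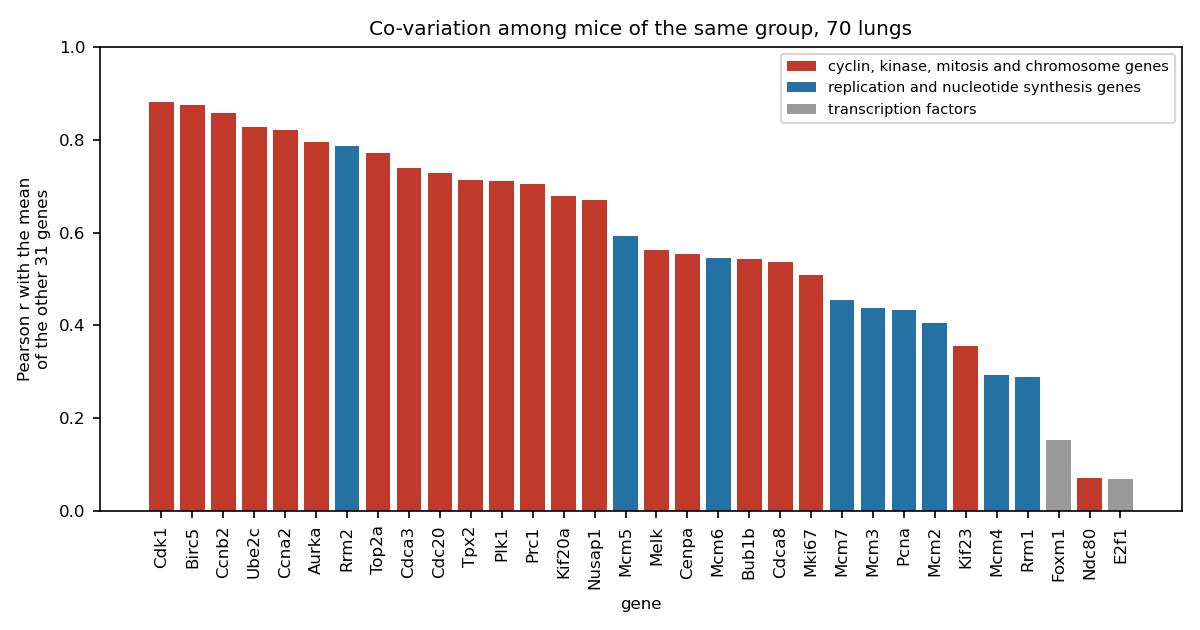
Pearson correlation (y axis) of each of the 32 genes (x axis) with the mean of the other 31, over the deviations of 70 mice from their group means, with bars coloured by role. Cdk1 (0.88), Birc5 (0.87) and Ccnb2 (0.86) stand highest and E2f1 and Ndc80 (0.07 each) lowest.

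The co-variation was visible in single mice. In the benzene group 1 mouse lay 0.49 above its group's mean over the 32 genes and was the highest of its group in 26 of them, where it was the highest in 11.5% of all genes. That mouse read 7.79 for Cdk1, against 6.32 to 6.89 in the other 3 benzene mice, and 7.04 for Ccnb2, against 5.61 to 6.02. In the N-methylolacrylamide group 1 mouse lay 0.39 above its group's mean and was highest in 29 of the 32 genes, against 24.1% of all genes. Without it, 2 members were called with N-methylolacrylamide. In the diazinon group 1 mouse lay 0.34 above its group's mean and was highest in 26 of the 32 genes, against 28.4% of all genes.

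For the benzene mouse, marker lists of other cells deviated from the group's mean by between -0.53 (neutrophils) and 0.36 (fibroblasts), with -0.12 for thymocytes and 0.06 for erythroid cells. For the N-methylolacrylamide mouse they deviated by between -0.25 (alveolar macrophages) and 0.32 (neutrophils). A 1,2-dibromoethane mouse that lay 0.32 above its group's mean differed in its markers too, by 2.07 for neutrophils, 1.16 for plasma cells and -2.18 for mesothelium. The 3' to 5' gap was 0.17 for the benzene mouse and 0.24 for the N-methylolacrylamide mouse. The part of other cells in these single mice was not tested.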

How the data were processed

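The deposited values are log2 probe set signals, read as log2 from the values, which run from 2.47 to 14.5. The array medians lie between 5.41 and 5.52. How the authors summarized and normalized the arrays: not given in the sources used here. Per the labels' protocols, Trizol and RNeasy were used on RNA of the right lung lobe, with a biotin label.

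Of 45101 probe sets, 34945 with 1 gene symbol in the platform list were used; 932 had several, 9160 had none and 64 were controls. The filter kept genes whose probe set mean exceeded the 30th percentile, 4.25 on the log2 scale. One model with a mean for each of 18 groups was fitted to 70 arrays with limma 3.58.1 in R 4.3.3 (lmFit, eBayes; files read with the data.table package, version 1.17.8). P-values were adjusted by Benjamini-Hochberg over 14593 genes in each comparison, errors are standard errors and intervals 95%. Replicates are separate mice, per the labels, and their number limits the precision. No 2 arrays were identical. RNA integrity was read from Actb and Gapdh controls, as the signal of 3' less that of 5' probe sets. The script was tested on simulated data. Figures used matplotlib 3.10.9 in Python 3.11.15.

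The members, gene lists and naming rule were chosen with earlier results of these data known. The rule named each called member, elsewhere the member with the smallest p in each direction, and up to 4 other called cell cycle genes a direction. Members named beyond it were chosen after their values were seen. Alternatives were other filters, the mean of all probe sets, quantile normalization, 2-group fits, a variance trend, array weights, an RNA integrity covariate, other controls and each mouse left out in turn.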

Additional observations from a re-analysis of the deposited data

Results flagged for a closer look

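Melk in the corn oil controls of set 2 had 1 mouse far below the others, at 4.139, where the other 7 controls lay between 4.467 and 4.529. Its distance to the next mouse was 0.841 of the group's whole range. In all, 24 lists of values were examined, each for the mean of the 32 genes or for a called gene in 1 group of 4 or 8 mice. This was the 1 flag, and chance flags about 1 in 20 of such lists. The same mouse read 6.95 for Mcm4, the lowest of its group, while its mean over the 32 genes, 6.26, was near the group's mean of 6.25.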

How the results depend on the processing

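Of the counts of called members, 269 stayed the same or close under the alternatives and 30 moved. A count above 0 was taken as close within a set factor, so that 5 called members in place of 4 did not count as moved. Of the median changes, 213 stayed and 1 moved, where a shift smaller than the pooled SD over mice of the 2 groups was taken as no move. With the 50th percentile filter, at 5.477, 0 members were called with 2,3-benzofuran, 0 with coumarin and 2 with N-methylolacrylamide. Mki67, Melk and Prc1, with means of 5.41, 4.53 and 5.38 over the 70 arrays, lay under that filter and so were not tested there. With the mean of all probe sets, 2 members were called in water against feed controls and 2 in corn oil against water controls of set 2. With the arrays of 2 groups alone the counts were 1 for 1,5-naphthalenediamine (Ccnb2), 0 for 2,3-benzofuran, 0 for coumarin, 2 for water against feed and 0 for corn oil against water controls. With an RNA integrity covariate they were 1 for corn oil against feed controls of set 2 and 2 for water against feed controls. Against feed controls, an alternative chosen after seeing the data, N-methylolacrylamide had 0 called members, the members' median with 2,3-benzofuran was 0.2352 and its Mki67 change turned to 0.2206. The cause was not tested.

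Leaving out 1 mouse at a time gave 0 to 1 called members for 2,3-benzofuran, 1 to 5 for N-methylolacrylamide (1 without one water control, 2 without either of 2 treated mice), 1 to 2 for water against feed controls, 0 to 2 for corn oil against water controls of set 2, 0 to 1 for 1,2-dibromoethane and 1 to 2 for coumarin. The other comparisons stayed at 0. No paired analysis was possible because each mouse has its own identifier, so that no group shares a number with another. Groups of 3 and 4 mice limit the changes that can be called, and 10 members under the filter entered only the fit with no filter.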
